A study of Mus musculus with 11 samples.

Results

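The tumour suppressor gene *Trp53*, which encodes the transcription factor p53, and 9 of its direct target genes were followed across *Txndc5* knockout (KO), wild-type (WT) and knockin (KI) AML12 cells. The 10 genes were *Trp53*, *Mdm2*, *Cdkn1a*, *Ccng1*, *Phlda3*, *Trp53inp1*, *Aen*, *Zmat3*, *Rrm2b* and *Sesn1*. They were chosen by name, for their place in the pathway, but with earlier results of these data known, as were the gene lists below. All 10 were found among the 24849 genes of the count table. AML12 is an immortalised line of mouse hepatocytes, derived from mice that carry a transgene for transforming growth factor alpha, and every group shares this parent. Polyadenylated RNA was sequenced from 4 KO libraries (replicates 5, 6, 7 and 8), 3 WT libraries (replicates 5-6, 7 and 8, the first of them 1 library) and 4 KI libraries (replicates 5, 6, 7 and 8). KO cells were edited in exon 5 of *Txndc5* with CRISPR/Cas9 and repair plasmids and selected with puromycin; the sample labels name their genotype a knockdown, and whether they are 1 clone is not stated in the sources used here. KI cells carry a *Txndc5* construct at the ROSA26 safe-harbour locus, meant to overexpress the gene. WT cells carry neither change. Nothing in the labels says that replicates came from separate cultures, so p-values measure only the spread between these libraries, which may be technical.

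*Txndc5*, which encodes a disulfide isomerase of the endoplasmic reticulum, was at 10.2, 8.50, 12.9 and 9.39 CPM (counts scaled to library size) in KO 5, 6, 7 and 8, at 147, 138 and 143 CPM in WT 5-6, 7 and 8, and at 158, 179.5, 176 and 163 CPM in KI 5, 6, 7 and 8. KO libraries lay far below WT (log2 fold change −3.82 ± 0.15 SE, adjusted p = 4.09e-08). All KI libraries lay above all WT libraries, yet the difference of 0.24 ± 0.12 did not pass the test (adjusted p = 0.136), so at the level of this table the KI cells carried little more *Txndc5* RNA than WT cells. CPM values throughout were scaled over all 11 libraries with edgeR's TMM factors, and adjusted p-values come from edgeR's quasi-likelihood test over all genes with Benjamini-Hochberg adjustment, called at 0.05.

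p53 is held at a low level in unstressed cells because its target MDM2, a ubiquitin ligase, marks it for degradation, a loop in which p53 raises the gene of its own inhibitor. DNA damage, nucleolar stress and oncogenic growth signals block MDM2 or modify p53, and the stabilised protein binds paired half-sites in DNA and activates genes for cell cycle arrest, apoptosis, DNA repair and redox control. In liver, p53 restrains the proliferation of hepatocytes and takes part in their metabolic and oxidative stress responses. Much of p53's control is exerted on the protein, so the RNA level of *Trp53* itself is a poor measure of p53 activity, and neither p53 protein nor its binding to DNA was measured here.

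The promoters of the 10 genes were read for the sequence that p53 binds, since this is what makes a gene a direct target. RefSeq windows (GRCm38.p6, 250 bases before to 50 after a transcription start) were given for 7 of the 10 genes, as 10 windows; *Rrm2b*, *Trp53inp1* and *Zmat3* had no entry. The p53 half-site consensus, a decamer that reads the same on both strands, was present in 7 of the 10 windows, belonging to 6 genes (*Trp53*, *Mdm2*, *Cdkn1a*, *Ccng1*, *Aen* and *Sesn1*), and in 8.36% of all 32851 windows. A pair of half-sites with at most 13 bases between them, the form of a full site, was present in 1 of the 10 windows, that of *Cdkn1a*, and in 0.0731% of all windows. The matches upstream of 4 genes are shown, in the direction of transcription, with half-sites in capitals.
Cdkn1a, chr17:29090891-29090952, plus strand: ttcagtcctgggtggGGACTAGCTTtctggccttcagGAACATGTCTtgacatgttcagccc
Mdm2, chr10:117710920-117710959, minus strand: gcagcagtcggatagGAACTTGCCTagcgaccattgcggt
Ccng1, chr11:40755447-40755486, minus strand: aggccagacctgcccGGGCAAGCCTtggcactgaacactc
Trp53, chr11:69580269-69580308, plus strand: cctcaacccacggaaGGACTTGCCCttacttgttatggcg
In *Cdkn1a* the pair begins 73 bases before the start and its half-sites are 12 bases apart. Only exact matches were marked. The 10 bases that directly follow its second half-site, tgacatgttc, depart from the consensus at their first base alone and so stand in lower case. Which of these stretches p53 binds is not shown by the search. The single half-sites begin 186 bases before the start in *Mdm2*, 185 in *Ccng1* and 75 in *Trp53*. A match describes the letters only. Windows of this length leave out introns and distal elements, and no match says only that the letters are not in the window.

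The libraries held 29840366 to 38422243 counts. WT libraries differed more among themselves than those of the other groups did: the median coefficient of variation of the 10 genes was 20.02% in WT, 8.67% in KO and 10.97% in KI, against 18.6%, 10.2% and 10.9% over the 10499 genes with a mean of at least 4 CPM. WT 8 stood apart. It had the highest WT level for 5 of the 10 genes and the lowest for the other 5, where 80.3% of all genes tested had WT 8 at one end of the WT range. WT libraries also held more counts in the most abundant newly assembled entry of the table (11.3% to 17.1% of counts, against 4.32% to 6.44% in KO and 4.82% to 9.12% in KI), and their TMM factors were 0.744 to 0.947 while those of all KO and KI libraries were above 1. The part of these differences in the results was not tested. Where leaving out WT 8 or another library ended or made a call against WT that is given below by gene name, that is stated. Calls of the marker genes and of the neighbours of *Cdkn2a*, and calls that enter a list count without a gene name, are not all covered.

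Marker genes matched the hepatocyte label in part. *Alb*, the main plasma protein made by hepatocytes, was at 4115 ± 524 CPM in KO (SD, n = 4), 513 ± 198 in WT (n = 3) and 246 ± 60.5 in KI (n = 4), and *Hnf4a*, the hepatocyte nuclear factor, at 275 ± 12.4, 107 ± 26.7 and 133 ± 8.00 CPM. The plasma proteins *Ttr* and *Trf* were lower in KO than in WT instead, *Ttr* at 438 ± 65.3, 826 ± 215 and 597 ± 99.8 CPM in KO, WT and KI (−0.93 ± 0.18 in KO against WT) and *Trf* at 1346 ± 109, 2975 ± 1077 and 1409.8 ± 101 CPM (−1.16 ± 0.21). *Apoa2*, another hepatocyte product, had at most 1 count in any library. The 9 hepatocyte markers summed to 7030 to 11171 CPM per library, and of 8 tested 4 were higher and 2 lower in KO than in WT, a comparison in which 55.1% of all genes tested were called. Markers of other cells were low or absent: 4 endothelial markers summed to at most 0.425 CPM in a library, 5 stellate or fibroblast markers to at most 1.15 and 5 macrophage or leukocyte markers to at most 9.56, the most abundant of them *Cd68* or *Ptprc*. Of 5 biliary markers, which summed to 1339 to 4379 CPM per library, *Epcam* had 0 counts throughout, and of the 4 tested 3 were lower and 1 was higher in KO than in WT. *Spp1* was at 246 ± 29.8 CPM in KO, 2520.3 ± 692 in WT and 1958 ± 116 in KI (−3.38 ± 0.20 in KO against WT), *Krt7* at 17.0 ± 1.34, 177 ± 11.02 and 118 ± 10.2 CPM (−3.40 ± 0.12), and *Krt19* was higher in KO (1097 ± 58.9 against 769.7 ± 107 CPM). Hepatocyte and biliary markers thus moved between the same groups as the p53 targets, and their part in the results was not tested.

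**Figure D1:**
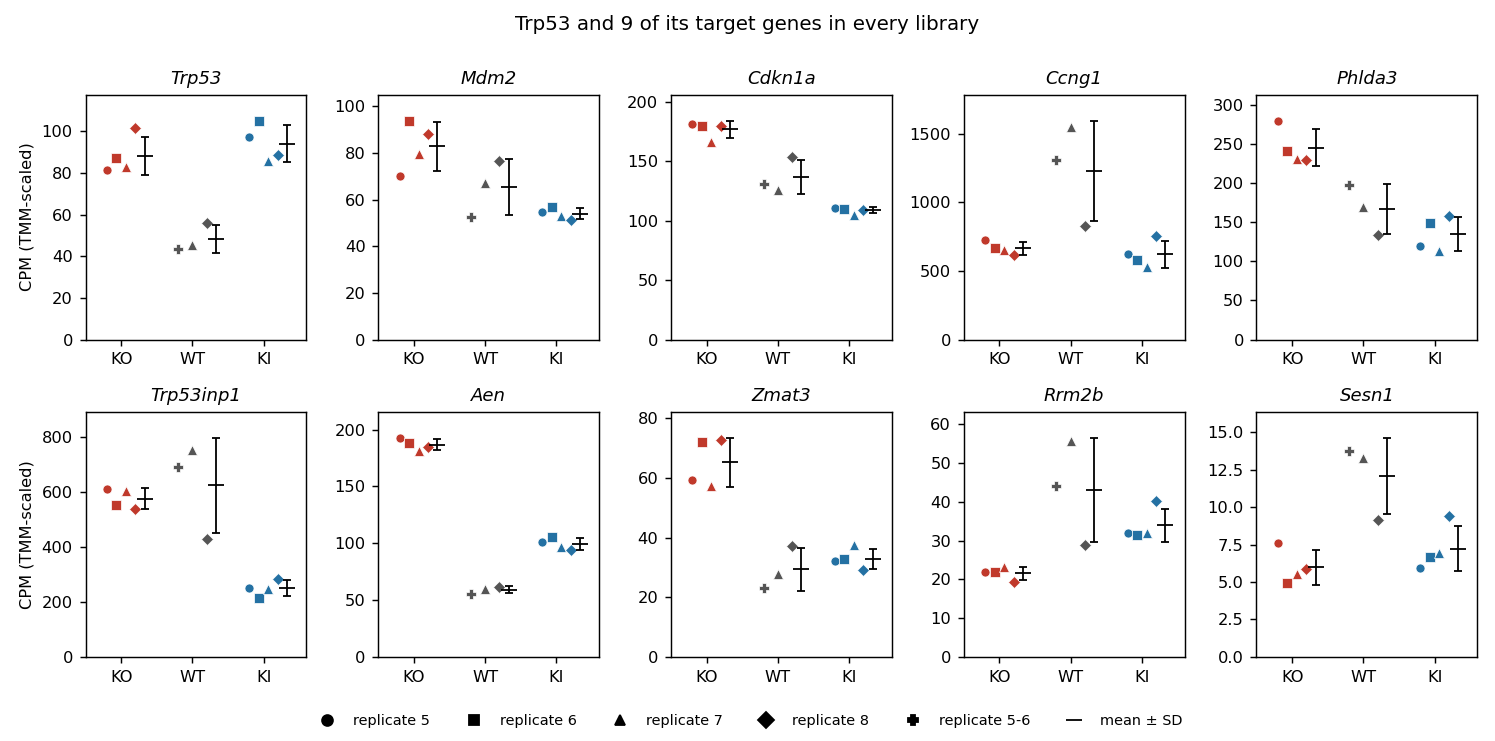
Each panel plots 1 gene, with TMM-scaled CPM (linear axis from 0) against group; each symbol is 1 library, its shape gives the replicate number, and the black bar is the mean ± SD (n = 4 KO, 3 WT, 4 KI). *Trp53* and *Aen* are higher in every KO and KI library than in any WT library, *Ccng1* is lower, *Cdkn1a* is highest in KO and lowest in KI, and the diamond of WT 8 lies at one end of the WT range in every panel.

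In KO cells 5 of the 10 genes were higher and 3 were lower than in WT cells, and 2 did not pass the test. The higher genes were *Trp53*, *Cdkn1a*, *Phlda3*, *Aen* and *Zmat3*, and the lower ones *Ccng1*, *Rrm2b* and *Sesn1*. Among all 13359 genes tested 55.1% were called, 26.7% higher and 28.4% lower, so a called gene was common in this comparison. In KI cells 2 of the 10 genes, *Trp53* and *Aen*, were higher than in WT and 4 were lower (*Cdkn1a*, *Ccng1*, *Trp53inp1* and *Sesn1*), beside 42.3% of 13534 genes called, 21.2% higher and 21% lower. Between KO and KI, 6 of the 10 genes were higher in KO, 1 (*Rrm2b*) was lower and 3 did not pass the test, beside 54% of 13269 genes called, 27% higher and 27% lower. The median log2 fold change of the 10 genes was 0.34 in KO against WT, −0.32 in KI against WT and 0.67 in KO against KI, and that of all genes tested was −0.03, −0.02 and 0.00. In the same 3 comparisons the groups did not overlap for 8, 5 and 7 of the 10 genes. Among all genes tested the shares without overlap were 55.3%, 44.7% and 48.6%. Most list genes named below were picked for lack of overlap in at least 1 comparison, so for them it is not a separate result. Both comparisons with WT use the same 3 WT libraries. Without WT 8 the counts of the 10 genes were 6 higher and 4 lower in KO and 2 higher and 5 lower in KI against WT. Of all genes tested, 8449 of 13664 were then called in KO against WT and 6969 of 13837 in KI against WT. Without WT 7 those of the 10 called lower in KI fell from 4 to 2, beside 4276 of 13862 genes called.

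*Trp53* itself was at 81.3, 87.4, 82.8 and 102 CPM in KO 5, 6, 7 and 8, at 43.5, 45.5 and 56.1 CPM in WT 5-6, 7 and 8, and at 97.4, 105, 85.9 and 88.5 CPM in KI 5, 6, 7 and 8. WT 8 was the highest WT library, and no KO or KI library came as low as any WT library. The level was 1.80-fold that of WT in KO (log2 fold change 0.85 ± 0.14, adjusted p = 0.000383) and 1.95-fold in KI (0.96 ± 0.14, adjusted p = 0.000224). KO and KI overlapped, and their difference of −0.09 ± 0.10 (95% interval −0.28 to 0.10) did not pass the test (adjusted p = 0.463). *Trp53* lies on chromosome 11, whose genes had a median log2 fold change of −0.34 in KO against WT and −0.09 in KI against WT, so the gene stood 1.19 and 1.05 above its chromosome.

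The relatives of *Trp53* were close to silent. *Trp63*, the p53 family gene of stratified epithelia, reached 0.230 CPM (10 counts) in KO 8, and *Trp73* reached 0.267 CPM (6 counts) in WT 5-6. Neither had enough counts to be tested.

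*Mdm2*, the gene of the ligase that p53 induces and that degrades p53, was at 70.0, 93.8, 79.5 and 88.2 CPM in KO, at 52.5, 67.1 and 76.6 CPM in WT and at 54.5, 57.0, 53.2 and 51.2 CPM in KI (replicates in the order given above, here and for the genes that follow). KO 5 lay below WT 8, and the KI libraries lay within or just below the WT range. The difference did not pass the test in KO against WT (0.32 ± 0.16, adjusted p = 0.104) or KI against WT (−0.28 ± 0.15, adjusted p = 0.145), while all KO libraries lay above all KI libraries (0.62 ± 0.10, adjusted p = 8.79e-05). Without WT 8 the first of these came to 0.48 and passed (adjusted p = 0.0127), without WT 5-6 the second came to −0.41 and passed (adjusted p = 0.0288), and over all 17 alternatives the adjusted p ran from 0.0126 to 0.268 in KO against WT and from 0.0288 to 0.916 in KI against WT.

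*Cdkn1a* encodes p21, the inhibitor of cyclin-dependent kinases through which p53 stops the cell cycle. It was at 181, 180.1, 167 and 180.1 CPM in KO, at 131, 126 and 153 CPM in WT and at 111, 109.9, 105 and 109 CPM in KI. The 3 groups did not overlap, with KO highest and KI lowest, and WT 8 was the WT library nearest to KO. KO exceeded KI 1.63-fold (0.71 ± 0.08, adjusted p = 1.64e-06) and kept that call under all 18 alternatives. The steps from WT were smaller. KO against WT was 0.35 ± 0.12 (adjusted p = 0.0237) and lost its call without KO 5, KO 6, KO 8 or WT 7 (adjusted p = 0.0565, 0.0688, 0.0616 and 0.0766, within a range of 0.00137 to 0.0766 over 17 alternatives). KI against WT was −0.33 ± 0.13 (adjusted p = 0.0480), lost its call under 12 of 17 alternatives, each of the 7 libraries left out among them, and came to −0.02 when library totals replaced TMM (adjusted p 0.0103 to 0.944). *Cdkn1a* is listed as 2 entries in the table, which were summed. The second held 53.3% to 57.9% of the sum in every library, and whether the authors split reads between the entries or counted them on both is not given in the sources used here.

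*Ccng1*, the gene of cyclin G1, which brings a phosphatase to MDM2, was at 726, 670.4, 655 and 614 CPM in KO, at 1309.6, 1548 and 829.8 CPM in WT and at 621, 581, 529 and 756 CPM in KI. It was lower in every KO and KI library than in any WT library, and WT 8 lay nearest to them. The fall was 0.91 on the log2 scale in KO (SE 0.20, adjusted p = 0.00260) and 0.99 in KI (SE 0.21, adjusted p = 0.00247). Without WT 8 the changes were −1.09 and −1.20. *Ccng1* lies on chromosome 11, as *Trp53* does, and relative to the chromosome's median its changes were −0.56 in KO and −0.90 in KI. Its 10 nearest tested genes had a median of −0.67 in KO against WT and −0.01 in KI against WT. The part of the region in the KO value was not tested. KO and KI overlapped and did not differ beyond their spread (0.10 ± 0.11, 95% interval −0.10 to 0.31).

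Among the genes linked to apoptosis, *Aen*, which encodes a nuclease that p53 induces and that degrades DNA, had the largest change from WT in KO of the 10 genes. It was at 193, 188, 181 and 185 CPM in KO, at 55.6, 60.1 and 61.6 CPM in WT and at 101, 106, 97.1 and 94.0 CPM in KI. No 2 groups overlapped, and the spread within each was small. KO was 3.11-fold WT (1.64 ± 0.11, adjusted p = 1.29e-06), KI was 1.68-fold WT (0.75 ± 0.13, adjusted p = 0.000514) and KO was 1.88-fold KI (0.91 ± 0.08, adjusted p = 1.26e-07). *Aen* lies on chromosome 7, whose median was 0.53 in KO against WT, 0.10 in KI against WT and 0.44 in KO against KI, so that 1.11, 0.65 and 0.47 of the changes stood above the chromosome.

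*Zmat3*, the gene of a zinc finger protein that binds RNA, was at 59.2, 72.0, 57.3 and 72.6 CPM in KO, at 23.1, 27.8 and 37.3 CPM in WT and at 32.1, 32.7, 37.4 and 29.1 CPM in KI. Every KO library lay above all others, and WT and KI overlapped. KO was 2.19-fold WT (1.13 ± 0.18, adjusted p = 0.000311) and 1.99-fold KI (1.00 ± 0.11, adjusted p = 2.59e-06), while KI against WT was 0.16 ± 0.17 (95% interval −0.18 to 0.50).

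*Phlda3*, whose product competes for membrane lipids and so restrains AKT signalling, was at 279.6, 241, 231 and 229 CPM in KO, at 197, 169 and 134 CPM in WT and at 120.1, 149, 114 and 158 CPM in KI. KO lay above WT (0.54 ± 0.15, adjusted p = 0.0106) and above KI (0.86 ± 0.11, adjusted p = 1.14e-05), and KI overlapped with WT (−0.30 ± 0.17, adjusted p = 0.161). Here WT 8 was the lowest WT library and so the one farthest from KO. Without it KI against WT came to −0.44 and passed the test (adjusted p = 0.0247, in a range of 0.0247 to 0.837 over 17 alternatives).

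*Trp53inp1*, the gene of a stress-induced nuclear protein that promotes p53 phosphorylation, was at 610.4, 549.9, 604 and 535 CPM in KO, at 689, 751 and 428 CPM in WT and at 251, 214, 247 and 284 CPM in KI. All KI libraries lay below all others, by 1.33 on the log2 scale against WT (SE 0.19, adjusted p = 0.000175) and with KO 2.31-fold above KI (1.21 ± 0.10, adjusted p = 6.76e-08). The KO libraries lay inside the WT range, which WT 8 alone stretched downward, and KO against WT was −0.14 ± 0.19 (adjusted p = 0.557). That value was 0.05 without WT 7 and −0.32 without WT 8, where it passed the test (adjusted p = 0.0264, the range over 17 alternatives being 0.0264 to 0.904).

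*Rrm2b*, the subunit of ribonucleotide reductase that supplies deoxynucleotides for DNA repair outside S phase, was at 22.0, 21.8, 23.3 and 19.3 CPM in KO, at 44.2, 55.8 and 29.0 CPM in WT and at 31.9, 31.3, 32.0 and 40.2 CPM in KI. KO lay below both other groups, which overlapped. The change was −1.02 ± 0.20 in KO against WT (adjusted p = 0.00129), −0.65 ± 0.11 in KO against KI (adjusted p = 0.000154) and −0.35 ± 0.20 in KI against WT (adjusted p = 0.179), the last of which passed without WT 8 (−0.56, adjusted p = 0.00604, in a range of 0.00604 to 0.98).

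*Sesn1* encodes sestrin 1, an inhibitor of mTORC1 signalling with a part in the defence against peroxides. It was the scarcest of the 10 genes, at 7.60, 4.92, 5.55 and 5.84 CPM in KO, at 13.8, 13.3 and 9.14 CPM in WT and at 5.90, 6.67, 6.95 and 9.40 CPM in KI. KO lay below WT (−1.03 ± 0.21, adjusted p = 0.00162), and KI was lower as well (−0.74 ± 0.21, adjusted p = 0.0129) though KI 8 exceeded WT 8. The KI call was lost without WT 5-6 (−0.63, adjusted p = 0.0528) or WT 7 (−0.66, adjusted p = 0.0592) and with library totals (−0.39, adjusted p = 0.141), and the adjusted p ran from 0.00228 to 0.141 over 17 alternatives. KO and KI overlapped (−0.27 ± 0.18, 95% interval −0.63 to 0.09).

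**Figure D2:**
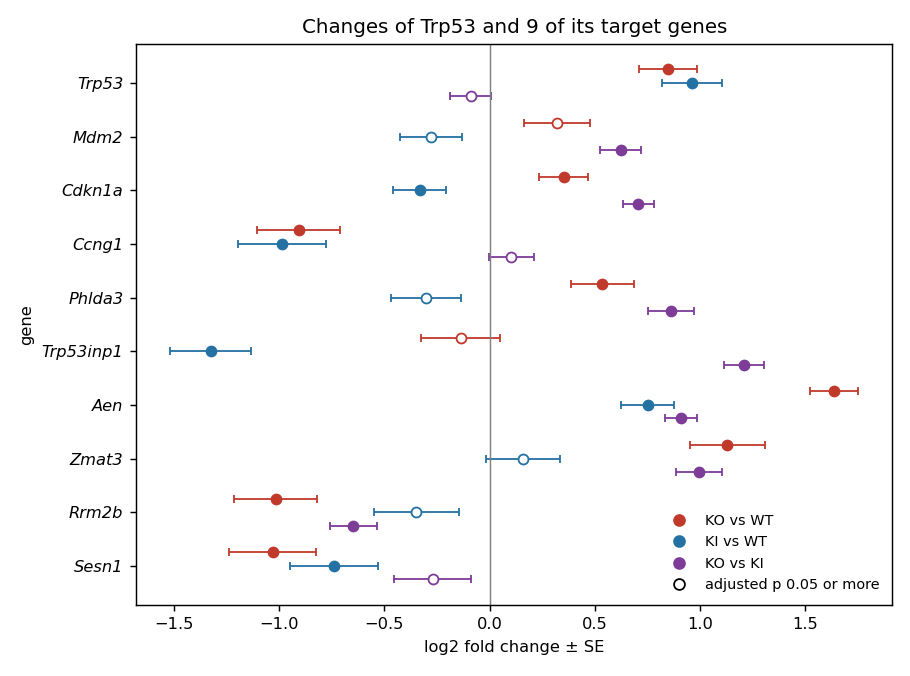
The plot gives the log2 fold change ± SE of each of the 10 genes (rows) in KO against WT (red), KI against WT (blue) and KO against KI (purple); filled points passed the test at an adjusted p of 0.05. *Trp53* and *Aen* lie to the right of 0 and *Ccng1* and *Sesn1* to the left in both comparisons with WT, while *Cdkn1a* lies at 0.35 in KO and −0.33 in KI.

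Divided by the exon length of each gene (GENCODE, union of exons), the levels kept a steady order at the top: *Ccng1*, *Phlda3*, *Trp53inp1* and *Cdkn1a* came first, in this order, in all 3 groups. In WT they stood at 350.0 ± 104, 107 ± 20.2, 96.2 ± 26.5 and 38.5 ± 4.06 CPM per kb of exon (SD, n = 3), of which *Phlda3* and *Trp53inp1* did not differ beyond their spread. *Aen* was below *Mdm2* and *Trp53* in WT (10.2 ± 0.532 CPM per kb, against 12.9 ± 2.39 and 12.0 ± 1.68, 3 levels that differed by little more than their spread) and above both in KO (32.2 ± 0.848, against 16.3 ± 2.05 and 21.8 ± 2.29, n = 4). The last places went to *Zmat3*, *Rrm2b* and *Sesn1* in every group, at 1.5 to 5.71 CPM per kb.

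The pattern over the 11 libraries split the targets. As a description, over log2 CPM in 11 libraries that share 3 groups, the 5 genes of 10289 with the highest Pearson correlation with *Trp53* were *Rangap1* (0.99), *Elavl1* (0.98), *Nol10* (0.98), *Actb* (0.98) and *Ppm1g* (0.98), none of them among the 10. Of the targets *Aen* came nearest to *Trp53* (0.73) and 4 ran opposite to it, *Ccng1* (−0.92), *Sesn1* (−0.85), *Rrm2b* (−0.63) and *Trp53inp1* (−0.61). The genes most like *Cdkn1a* were *Lonp1* (0.99), *Pck2* (0.99), *Baiap2* (0.98), *Ass1* (0.98) and 1 newly assembled gene (0.98), and among the targets *Mdm2* (0.89), *Phlda3* (0.83) and *Zmat3* (0.81) followed it, whereas *Trp53* did not (−0.01).

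The regulators of p53 were examined as a list of 20 genes, *Mdm2* included, of which 5 were higher and 7 lower in KO than in WT, 5 higher and 5 lower in KI than in WT, and 5 higher and 6 lower in KO than in KI. The shares called, 60%, 50% and 55%, stood near the 55.1%, 42.3% and 54% of all genes, and the medians were 0.04, 0.11 and 0.00. Without WT 8 the list gained *Mdm2*, *Chek2*, *Ep300* and *Trp53bp1* as higher and *Cop1* and *Atr* as lower in KO against WT. Of all genes, 8449 of 13664 were then called in that comparison. The closeness of the KO share to that of all genes thus depended on WT 8. In KI against WT *Hipk2* and *Ep300* passed as higher and *Cop1* as lower without WT 8, and *Cop1* also without KI 8 (−0.50, adjusted p = 0.0456). The largest change in KO, against WT and against KI, belonged to *Cdkn2a*, the locus of ARF, which sequesters MDM2, and of the kinase inhibitor p16, 2 products that share exons and are counted as 1 gene here. *Cdkn2a* was at 1.29, 2.34, 0.930 and 1.5 CPM in KO, at 44.3, 34.7 and 33.6 CPM in WT and at 59.2, 68.6, 56.5 and 55.2 CPM in KI. The 3 groups did not overlap, the KO libraries holding 31 to 79 counts and the WT libraries 860 to 994. KO lay below WT by 4.65 on the log2 scale (SE 0.26, adjusted p = 3.14e-07), KI lay above WT (0.67 ± 0.15, adjusted p = 0.00307) and all 3 comparisons kept their calls under every alternative. Of the 3 nearest tested genes on each side on chromosome 4, looked up after this value was seen, 1 was higher, 1 was lower and 4 did not pass in KO against WT. The adjoining *Mtap* was higher (1.27 ± 0.14) and the adjoining *Cdkn2b* differed by −0.17 ± 0.15 (adjusted p = 0.363), but *Elavl2*, next beyond *Cdkn2b*, had 0 counts in every KO library, 17 to 25 in WT and 171 to 273 in KI, and so was low and high in the same groups as *Cdkn2a*. In KO against KI *Cdkn2b* was lower as well (−0.93 ± 0.11). Whether the region has a part in the *Cdkn2a* value was not tested.

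Several other regulators moved in the same direction in KO and KI. *Mdm4*, the partner of MDM2 that masks the activation domain of p53, was at 51.3, 60.2, 56.1 and 64.2 CPM in KO, at 75.3, 91.1 and 90.2 CPM in WT and at 54.7, 50.04, 60.4 and 52.3 CPM in KI. Both edited groups lay below all WT libraries, by 0.58 (SE 0.13, adjusted p = 0.00269) and 0.66 (SE 0.13, adjusted p = 0.00198) on the log2 scale. *Rpl5* and *Rpl11*, ribosomal proteins that bind MDM2 when ribosome assembly fails, fell by 1.46 and 0.97 in KO and by 1.39 and 0.94 in KI on the same scale. *Rpl5* was at 1341, 1049, 1090.1 and 924 CPM in KO, at 3647, 3364 and 1919.6 CPM in WT and at 1087, 1186, 923 and 1363 CPM in KI, with WT 8 again nearest to the edited groups. *Npm1*, the nucleolar protein that holds ARF, fell by 1.37 in KO and by 0.58 in KI. In KI its levels overlapped with WT, KI 5 lying above WT 8, and the call (adjusted p = 0.0342) was lost when any library but WT 8 was left out (−0.77, adjusted p = 0.00155 without WT 8).

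Some kinases of this list were higher than in WT, while others did not pass. *Prkdc*, the catalytic subunit of DNA-dependent protein kinase, was at 37.2, 35.8, 37.7 and 41.3 CPM in KO, at 14.6, 11.3 and 16.9 CPM in WT and at 31.7, 25.6, 31.0 and 19.7 CPM in KI. All edited libraries exceeded all WT libraries (1.40 ± 0.15 in KO, adjusted p = 2.92e-05, and 0.92 ± 0.20 in KI, adjusted p = 0.00266). *Chek1*, the checkpoint kinase, was higher by 1.10 ± 0.21 in KO and 1.68 ± 0.23 in KI, and *Atm*, which signals double-strand breaks, by 0.74 ± 0.15 in KI, while its value in KO was 0.32 ± 0.13 (adjusted p = 0.0593), which passed without KO 5 (0.39, adjusted p = 0.0344) or WT 5-6 (0.41, adjusted p = 0.0344). *Hipk2*, a kinase that phosphorylates p53 after damage, was higher in KO (1.07 ± 0.26, adjusted p = 0.00477), and in KI it passed without WT 8 (0.85, adjusted p = 0.00112). *Atr* and *Chek2* did not pass against WT, but without WT 8 both passed in KO (−0.37, adjusted p = 0.0288, and 0.53, adjusted p = 0.0341). *Usp7*, the protease that removes ubiquitin from MDM2 and p53, was higher by 1.07 ± 0.14 in KO and 0.44 ± 0.15 in KI. In KI, where KI 8 lay below WT 8, its call (adjusted p = 0.03) was lost when WT 5-6, WT 7, KI 5, KI 6 or KI 7 was left out, and without WT 8 it came to 0.56 (adjusted p = 0.00407). The acetyltransferase gene *Crebbp* was higher in KO by 1.29 ± 0.24 and was at −0.07 ± 0.20 in KI. Of these, *Usp7*, *Prkdc*, *Hipk2* and *Crebbp* were also higher in KO than in KI, and *Chek1*, *Atm*, *Npm1* and *Ppm1d*, the gene of the phosphatase WIP1, were lower (−0.56 ± 0.12, −0.39 ± 0.11, −0.77 ± 0.10 and −0.89 ± 0.12). *Atr*, the kinase of stalled replication, was lower in KO than in KI too (−0.56 ± 0.11).

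**Figure D3:**
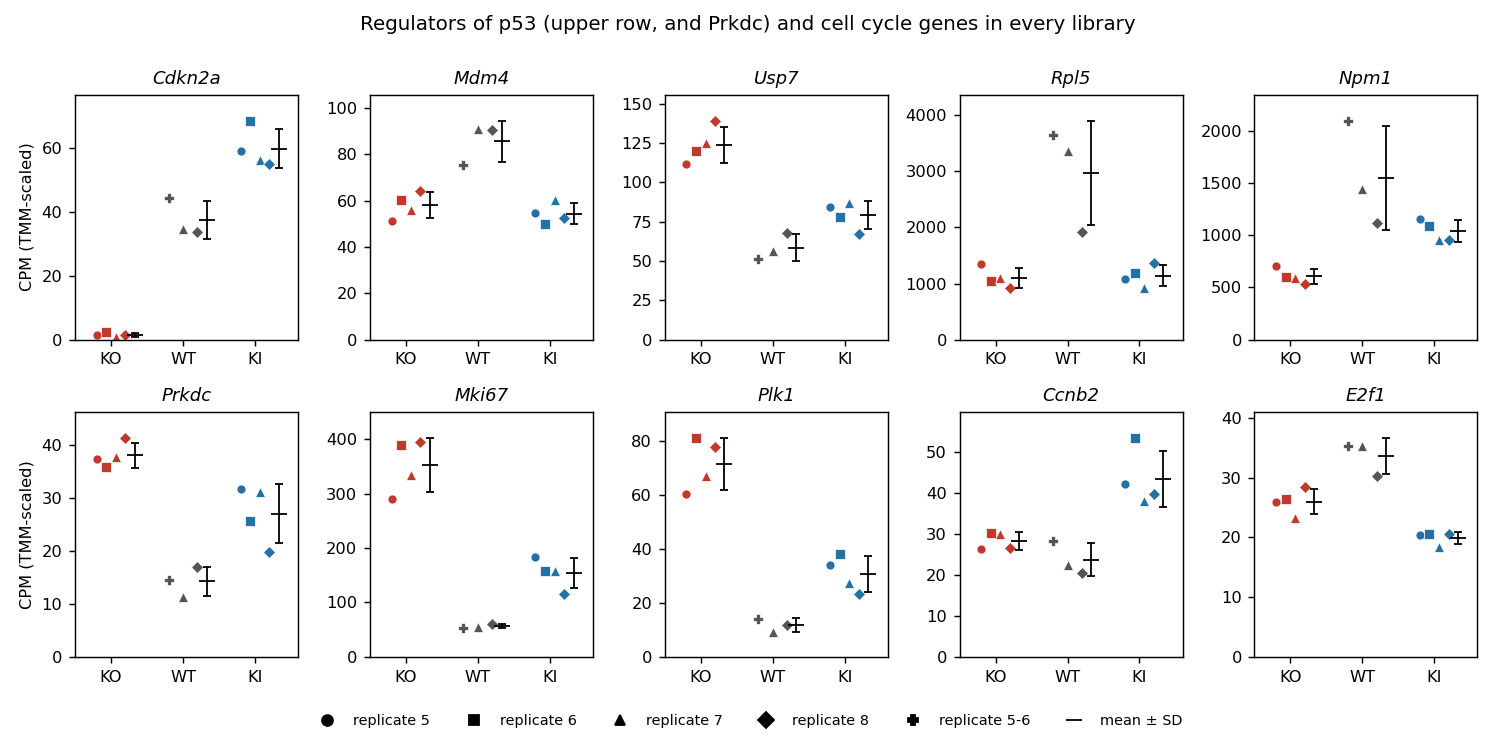
TMM-scaled CPM (linear axes from 0) of 6 regulators of p53 and 4 cell cycle genes is plotted by group, with 1 symbol per library and mean ± SD in black (n = 4 KO, 3 WT, 4 KI). *Cdkn2a* is near 0 in all KO libraries and highest in KI, *Mdm4*, *Rpl5* and *E2f1* are lower in both edited groups than in any WT library, and *Prkdc*, *Mki67* and *Plk1* are higher.

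The wider lists of p53 target genes held 45 genes, 8 of the genes above among them, and 43 had enough counts to be tested (*Sfn* and *Rprm* had not). In KO against WT 18 were higher, 9 were lower and 16 did not pass, with a median of 0.24. In KI against WT 8 were higher, 10 were lower and 25 did not pass, with a median of −0.12, and in KO against KI 19 were higher and 7 lower, with a median of 0.18. The shares called, 62.8%, 41.9% and 60.5%, stood near those of all genes. Without those 8, the 35 tested genes gave 14 higher and 6 lower, 7 higher and 6 lower, and 14 higher and 6 lower in the same 3 comparisons. Scaled by library totals instead, the KO against WT counts of the 43 became 28 higher and 5 lower, and the KI against WT counts 13 and 6. On that scale all genes shifted as well: 72.8% and 76.3% of all called genes were higher, and the medians of all genes were 0.38 and 0.31.

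In the list of 16 apoptosis genes, 7 were higher and 2 lower in KO than in WT (56.2% called, against 55.1% of all genes), 3 were higher and 2 lower in KI than in WT (31.2% against 42.3%, median −0.13), and 10 were higher and 2 lower in KO than in KI (75% against 54%, median 0.77). Without WT 8, *Bbc3*, *Perp*, *Phlda3* and *Eda2r* also passed as lower in KI against WT, where 6969 of 13837 of all genes were then called. The small share of the list called there thus depended on WT 8. *Eda2r* passed as lower in KI without KI 8 too (−0.58, adjusted p = 0.0468). *Bbc3*, the gene of the death activator PUMA, was at 60.5, 58.4, 55.2 and 58.7 CPM in KO, at 29.4, 26.3 and 21.4 CPM in WT and at 21.5, 20.9, 18.9 and 23.6 CPM in KI. KO lay above both other groups (1.16 ± 0.14 against WT, adjusted p = 4.96e-05), which overlapped, and without WT 8 KI was lower than WT (−0.39, adjusted p = 0.0326). *Pmaip1*, the gene of the related activator NOXA, went the other way, at 38.3, 43.1, 39.6 and 43.4 CPM in KO, at 105, 104 and 113 CPM in WT and at 101, 97.8, 104 and 92.4 CPM in KI. It fell by 1.40 in KO (SE 0.11, adjusted p = 2.89e-06) and was at −0.12 ± 0.12 in KI. *Fas*, the death receptor, was at 49.8, 38.8, 44.9 and 35.8 CPM in KO, at 83.6, 72.4 and 47.1 CPM in WT and at 13.7, 13.7, 14.6 and 14.2 CPM in KI, lowest in KI by 2.27 on the log2 scale against WT (SE 0.18, adjusted p = 2.29e-06). In KO, which overlapped with WT, its change was −0.70 ± 0.19 (adjusted p = 0.00936). That call was lost without WT 5-6 (adjusted p = 0.0509) or WT 7 (adjusted p = 0.0501). *Bax*, the pore-forming effector that these proteins act on, did not pass in any comparison (0.00 ± 0.14 in KO and −0.14 ± 0.16 in KI against WT). *Pidd1*, of the PIDDosome, was higher in KO (1.29 ± 0.28), *Apaf1*, of the apoptosome, in KI (0.84 ± 0.20) and, without WT 8, in KO (0.48, adjusted p = 0.00763), and *Steap3*, a metalloreductase, in both (0.82 ± 0.16 and 0.93 ± 0.16).

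Of the 8 tested arrest genes, 4 were higher and 2 lower in KO than in WT (75% called, against 55.1% of all genes), and 2 were higher and 3 lower in KI than in WT (62.5% against 42.3%). Of these 3, *Cdkn1a* and *Gadd45a* lost their call without WT 5-6, WT 7 or WT 8, which left *Ccng1* alone as lower. *Gtse1*, whose product moves p53 out of the nucleus in G2, was at 34.7, 46.6, 33.6 and 41.7 CPM in KO, at 9.76, 14.2 and 6.90 CPM in WT and at 28.2, 26.3, 19.8 and 18.4 CPM in KI. No 2 groups overlapped, and lack of overlap was a condition for naming the gene. *Btg2*, an antiproliferative gene, was higher by 0.50 ± 0.12 in KO and 0.55 ± 0.14 in KI, and *Psrc1*, a spindle gene, by 0.62 ± 0.17 in KO. *Gadd45a*, a stress sensor, fell by 0.44 in KI (SE 0.16, adjusted p = 0.0444), a call lost when any library but KI 7 was left out, and *Plk3*, a polo-like kinase, fell by 0.62 in KO (SE 0.21, adjusted p = 0.0288), a call lost without KO 5, KO 6, KO 7 or WT 5-6.

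Of 6 DNA repair targets, *Polh*, a polymerase that copies past damaged bases, was higher in both KO and KI (1.36 ± 0.19 and 1.10 ± 0.19) and *Polk*, another such polymerase, was lower in both (−0.73 ± 0.13 and −0.85 ± 0.18). *Xpc*, *Ddb2* and *Ercc5*, of nucleotide excision repair, did not pass against WT, but *Xpc* and *Ercc5* passed in KO without WT 8 (0.32, adjusted p = 0.0363, and 0.40, adjusted p = 0.0342) and *Ddb2* in KI without WT 5-6 (0.55, adjusted p = 0.0249). In the 13 genes of metabolism and redox control, 6 were higher and 3 lower in KO (69.2% called, against 55.1% of all genes) and 2 higher and 4 lower in KI (46.2% against 42.3%). *Gls2*, the glutaminase of mitochondria, was at 6.70, 6.90, 6.60 and 8.10 CPM in KO, at 30.4, 26.3 and 28.6 CPM in WT and at 13.6, 12.8, 13.9 and 14.4 CPM in KI, without overlap of any 2 groups (−2.02 ± 0.14 in KO, adjusted p = 1.29e-06, and −1.05 ± 0.14 in KI, adjusted p = 7.78e-05). *Dcxr*, a xylulose reductase, was lower in both as well (−0.57 ± 0.13 and −0.65 ± 0.16). *Tigar*, which restrains glycolysis, and *Gpx1*, a glutathione peroxidase, were higher in both (0.67 ± 0.16 and 0.67 ± 0.17 for *Tigar*, 0.53 ± 0.14 and 1.15 ± 0.17 for *Gpx1*), the *Tigar* call in KI being lost without WT 7 (0.55, adjusted p = 0.053). *Ak1*, adenylate kinase, and *Sesn2*, the stress-induced relative of *Sesn1*, were higher in KO only by the test against WT (1.65 ± 0.17 and 0.86 ± 0.21, against 0.05 ± 0.17 and −0.31 ± 0.24 in KI), and both were higher in KO than in KI (1.62 ± 0.11 and 1.19 ± 0.16). *Sesn1* and *Sesn2* thus had opposite signs in KO against WT. *Pmm1*, a phosphomannomutase gene, was lower in KI (−0.97 ± 0.16), and in KO it passed as lower without KO 5 (−0.41, adjusted p = 0.0372) or WT 8 (−0.37, adjusted p = 0.0385).

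**Figure D4:**
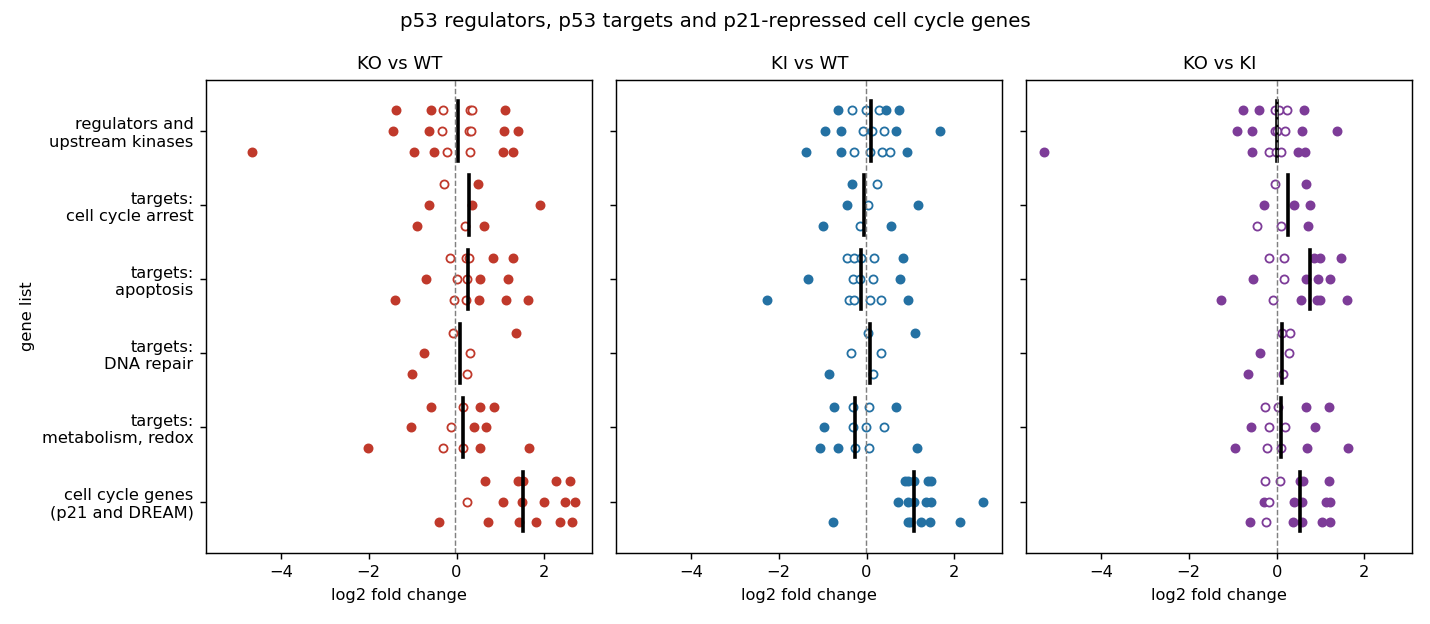
Each point is the log2 fold change of 1 gene of a list (rows) in KO against WT, KI against WT and KO against KI; filled points passed the test, black bars are list medians and the dashed line is the median of all genes tested. The target lists spread to both sides of 0 in every comparison, while the cell cycle genes lie mostly to the right, with medians of 1.51, 1.08 and 0.54.

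The last list held 17 cell cycle genes that p53 represses indirectly, through p21 and the DREAM complex. In KO 15 of them were higher than in WT, 1 (*E2f1*) was lower and 1 did not pass, with a median of 1.51, and in KI 16 were higher and 1 (*E2f1*) was lower, with a median of 1.08, where 26.7% and 21.2% of all genes tested were higher. *Cdkn1a*, the gene of p21, was higher than WT in the first of these groups and lower in the second. *Mki67*, the proliferation marker, was at 289, 390.0, 335 and 394 CPM in KO, at 53.5, 55.2 and 60.1 CPM in WT and at 183, 158, 158 and 116 CPM in KI. The 3 groups stood clear of each other (2.63 ± 0.15 in KO against WT, adjusted p = 3.80e-07, and 1.45 ± 0.16 in KI, adjusted p = 2.94e-05). *Plk1*, a mitotic kinase, was at 60.5, 81.1, 66.9 and 77.8 CPM in KO, at 14.1, 9.16 and 11.9 CPM in WT and at 34.2, 38.3, 27.4 and 23.4 CPM in KI, in the same order. *Mybl2*, of the complex that activates mitotic genes, was higher by 2.69 ± 0.23 and 2.12 ± 0.25, *Mcm5*, of the replicative helicase, by 2.36 ± 0.18 and 2.64 ± 0.21, and *Ccna2*, cyclin A2, by 1.98 ± 0.13 and 1.47 ± 0.15. Between KO and KI, 11 of the 17 were higher in KO and 2 were lower (median 0.54, where 27% of all genes were higher and 27% lower), with *Plk1*, *Cdc20*, a cofactor of the anaphase-promoting complex, and *Mki67* highest (1.22 ± 0.14, 1.21 ± 0.14 and 1.20 ± 0.13) and *Ccnb2*, cyclin B2, lower by 0.61 (SE 0.11). The *E2f1* call in KO against WT (−0.39 ± 0.13) was lost with library totals and when KO 5, KO 6, KO 7, WT 5-6 or WT 7 was left out, the count of lower genes then being 0. *Ccnb2*, the gene that did not pass in KO against WT (0.23 ± 0.14, adjusted p = 0.188), passed without WT 5-6 (0.40, adjusted p = 0.0385). The call of *Cdc25c* in KI against WT (0.94 ± 0.33, adjusted p = 0.0365) was lost without WT 8 (0.57, adjusted p = 0.0501), KI 5 (0.93, adjusted p = 0.071) or KI 6 (0.80, adjusted p = 0.103).

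The scale of all these changes is relative to the bulk of the genes. With TMM factors the median of all genes was −0.03 in KO against WT, with 48.5% of called genes higher, and −0.02 in KI against WT, with 50.2% higher. With library totals the medians were 0.38 and 0.31 and the higher shares 72.8% and 76.3%. On that scale *Mdm2* passed in KO against WT (0.72, adjusted p = 0.0126) and *Trp53inp1* turned to 0.30, and in KI against WT *Mdm2*, *Phlda3* and *Rrm2b* turned to 0.03, 0.04 and 0.01, none of which passed. *Trp53*, *Cdkn1a*, *Ccng1*, *Aen*, *Zmat3* and *Sesn1* kept their direction in both comparisons with WT under every alternative run, and of these *Trp53*, *Ccng1* and *Aen* kept both calls as well.

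**Figure D5:**
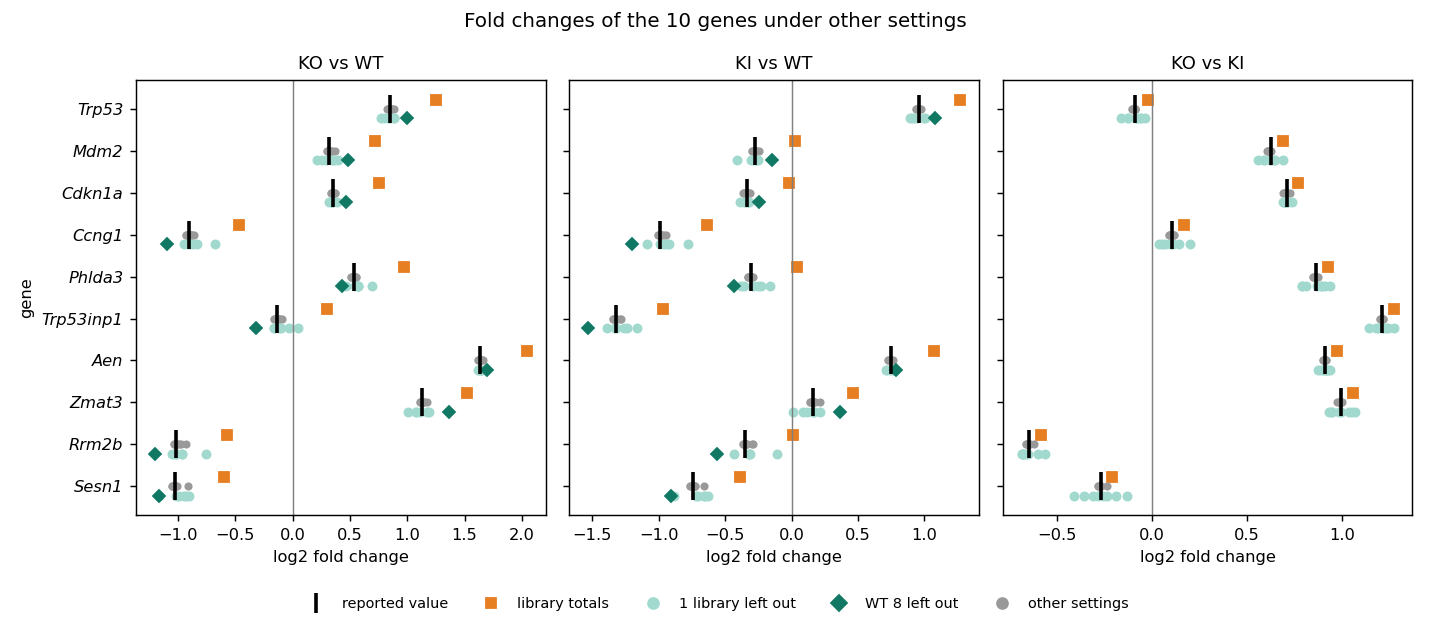
The log2 fold change of each of the 10 genes (rows) is plotted in the 3 comparisons as reported (black bar), with library totals in place of TMM (orange squares), with 1 library left out (light points, dark diamond for WT 8) and under the other settings (grey). Library totals shift the comparisons with WT to the right, by 0.30 to 0.44 for these genes, and move KO against KI by at most 0.07.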

How the data were processed

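Polyadenylated RNA of 11 AML12 libraries (4 KO, 3 WT, 4 KI) was sequenced by the authors, whose processing notes name HISAT2, TopHat2, Bowtie2 and StringTie. The genome build and the counting tool are not given in the sources used here. The deposited table holds raw counts per gene entry; its FPKM columns, some with damaged decimals, and the authors' own comparison columns (fold changes and p-values from DESeq2) were not used. Of 26472 lines, 10 were broken and left out, and 26462 entries, 2960 of them newly assembled, were summed by name to 24849 genes.

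The 10 genes and all gene lists were chosen with earlier results of these data known. Each comparison was fitted on its own libraries with edgeR 4.0.16 (filterByExpr, TMM, robust quasi-likelihood F test) in R 4.3.3, and called at a Benjamini-Hochberg adjusted p under 0.05 over all genes tested. Standard errors are the log2 fold change divided by the square root of F. Levels are CPM with TMM factors over all 11 libraries. Named genes beyond the 10 were, for each list and comparison, up to 3 called higher and 3 called lower with a mean log2 CPM of at least 2 and no overlap between groups, taken by size. *Trp63*, *Trp73*, *Bax*, *Xpc*, *Ercc5*, *Atr*, *Chek2*, *Hipk2*, *Ep300*, *Trp53bp1*, *Cop1*, *Perp*, *Eda2r*, *Cdc25c*, *Mtap*, *Cdkn2b* and *Elavl2*, and the cell type marker genes, were named outside this rule after their values were seen. Chromosomes and exon lengths came from GENCODE vM21 by gene name (at least 97.6% of annotated genes tested were placed). Alternatives were RLE factors, library totals, DESeq2 1.42.0, limma 3.58.1 on log2(CPM + 1), no low-count filter, 1 fit over all libraries, a replicate block, unsummed entries, the 2 largest new entries left out, and each library left out. The fits were tested on simulated data. At 29840366 to 38422243 counts per library every one of the 10 genes had at least 166 counts in each library.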

Additional observations from a re-analysis of the deposited data

Results flagged for a closer look

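Among 53 genes examined, 1 library stood apart from the other 3 of its group by Dixon's test in 4 of 106 groups of 4, where chance gives about 5.3. *Cdkn1a* in KO 7 (167 CPM, the others 180.1 to 181) had a gap of 0.906 of the group's range, *Rrm2b* in KI 8 (40.2 CPM, the others 31.3 to 32.0) a gap of 0.930, *Tigar* in KI 6 (29.8 CPM, the others 23.0 to 23.8) a gap of 0.891 and *E2f1* in KI 7 (18.4 CPM, the others 20.3 to 20.6) a gap of 0.892. The 3 WT libraries are too few for this test.

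Of the 10 genes and the p53 lists, 2 genes were called in opposite directions in KO and KI against WT and also between KO and KI. The KO against KI log2 fold change was 0.71 for *Cdkn1a*, higher than WT in KO and lower in KI, and −5.30 for *Cdkn2a*, lower than WT in KO and higher in KI. The *Cdkn1a* difference between KI and WT lost its call under most alternatives, while the difference between KO and KI did not.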

How the results depend on the processing

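For the 10 genes and *Cdkn2a*, 540 of 572 recomputed fold changes kept their direction and their side of the threshold, 19 lost their call, 8 gained one and 5 turned sign. With library totals, *Trp53inp1* came to 0.30 in KO against WT, and *Mdm2*, *Phlda3* and *Rrm2b* to 0.0293, 0.0414 and 0.00697 in KI against WT; the scale shift of all genes given above is part of that setting. *Trp53inp1* ran from −0.318 (without WT 8) to 0.0485 (without WT 7) in KO against WT with 1 library left out. The 4 genes called lower in KI against WT became 2 with library totals and 2 to 5 with 1 library left out (2 without WT 7). With 1 library left out, genes called ran from 6161 to 8449 in KO against WT, from 4276 to 6969 in KI against WT and from 6515 to 7230 in KO against KI. Of the 81 tested genes of the p53 lists, 7 of 56 called in KO against WT, 7 of 46 in KI against WT and 2 of 50 in KO against KI lost their call when some 1 library was left out, and 16, 13 and 9 uncalled genes gained one, of which 11, 9 and 0 did so without WT 8. Other alternatives stayed within 1.5 times the reported counts for all genes and for the 10 genes. Library numbers are not said to mark a shared culture, and not every equal-numbered pair deviated together (correlations −0.46 to 0.62, and −0.60 to 0.53 for unequal numbers). Between KO and WT, KO 5, KO 7 and KO 8 correlated best with their own number (0.57, 0.10 and 0.62), while KO 6 did not (−0.16 with WT 5-6). With a replicate block 8183, 4891 and 6453 genes were called in the 3 comparisons, and of the 10 genes 6 higher and 3 lower, 2 higher and 3 lower, and 6 higher and 1 lower; *Mdm2* gained a call in KO against WT (0.37) and *Cdkn1a* lost its call in KI against WT (−0.33). With 3 WT libraries, 1 of them apart, small differences from WT were the least secure. The cause of these shifts was not tested.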
